A study of Mus musculus with 6 samples.

Results

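RefSeq transcripts annotated as noncoding were compared between heart ventricles that had lost the transcription factor gene Tead1 in cardiomyocytes and control ventricles. The members were chosen by 2 criteria, a RefSeq noncoding accession (prefix NR_) and detection (a signal well above background) on each of the 3 arrays in one group or both, and H19 and Meg3 were left out. This gave 311 probes of 257 transcripts, out of 771 such probes among the 55681 non-control probes of the array. Of the others, 5 probes belonged to H19 and Meg3 and 455 did not pass, among them 361 that were above background on no array. The choice rested on detection in the same 6 arrays and did not use the size of the difference. It is still tied to the difference for the 32 transcripts that passed through 1 group alone.

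All 6 mice were male, on the C57bl/6j background, 11 to 12 weeks old, and were given tamoxifen per the series' design text. The 3 controls carried Tead1 flox, with no Cre named in the labels. The 3 icKO mice were Tead1F/F; Myh6-CreER, in which the Myh6 promoter makes a tamoxifen-activated Cre recombinase in cardiomyocytes, so Tead1 loss and Cre cannot be told apart. Total RNA of whole ventricle tissue was amplified to Cy3-labelled cRNA and read on one-colour Agilent arrays.

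Noncoding transcripts fall into groups with different biology. Host genes of small nucleolar RNAs (snoRNAs) are spliced, their introns release the snoRNAs that guide modification and cleavage of ribosomal RNA, and the spliced remainder is often removed by nonsense-mediated decay. Their transcription typically starts in a run of pyrimidines, the terminal oligopyrimidine tract that they share with ribosomal protein genes. Antisense transcripts run across a protein-coding gene on the opposite strand. Long noncoding RNAs such as Malat1 and Neat1 stay in the nucleus, where Neat1 builds paraspeckles, and Mhrt is read from the myosin heavy chain locus of cardiomyocytes.

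The starts of the snoRNA host genes whose values carry the first comparison are shown because of that tract. Promoter entries of RefSeq on GRCm38.p6 held 10 of the 11 hosts described here. Each line gives 30 bases before and 30 from the annotated start, 5′ to 3′ on the gene's strand, with runs of at least 5 C or T that lie near the start in capitals.
2410006H16Rik, chr11:62602847-62602906, plus strand: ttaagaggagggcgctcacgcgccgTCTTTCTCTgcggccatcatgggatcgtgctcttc
1110038B12Rik, chr17:34952442-34952501, minus strand: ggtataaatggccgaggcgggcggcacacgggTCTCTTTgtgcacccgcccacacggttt
Snhg3, chr4:132353657-132353716, minus strand: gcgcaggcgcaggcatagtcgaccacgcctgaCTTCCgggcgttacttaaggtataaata
Snhg12, chr4:132308648-132308707, plus strand: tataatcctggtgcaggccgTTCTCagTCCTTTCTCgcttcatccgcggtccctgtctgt
Snhg1, chr19:8723457-8723516, plus strand: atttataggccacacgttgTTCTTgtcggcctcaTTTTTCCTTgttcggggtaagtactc
Snhg7, chr2:26640215-26640274, minus strand: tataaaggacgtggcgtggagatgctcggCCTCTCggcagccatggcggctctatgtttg
A run of at least 5 pyrimidines within 15 bases of the start was present in 10 of 10 hosts, and in 55.7% of all 32851 RefSeq promoter entries searched in the same way. Hosts that rose, hosts that fell and hosts that did not pass all had such a run.

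Values below are log2 processed signals less the array's own 75th percentile, so 0 is the 75th percentile of the array. A difference is the icKO mean minus the control mean on that scale, with its standard error (SE) from limma fitted over all 26152 kept probes, and a member passed the test at a Benjamini-Hochberg adjusted p under 0.05 over all of them. A transcript stands for its brightest probe. Because detection chose the members, counts and medians are given over the 225 transcripts above background on all 6 arrays, and the other 32 are described at the end by their values. Of the 225, 31 rose, 65 fell and 129 did not pass, so 42.7% were called, against 43.6% of 19817 features of the whole array detected in the same way and 44.3% of all kept probes. The shares in each direction, 13.8% higher and 28.9% lower, lay beside 15.4% and 28.3% of all features, and the median difference was -0.12 beside -0.13. The groups did not overlap for 127 of the 225 (56.4%, against 58.9% of all features). These shares lie near the background, so they show nothing particular to noncoding transcripts.

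The direction of the calls depended on how the arrays were scaled. With the 75th percentile, 32.3% of the called noncoding transcripts were higher in icKO. Scaling to the array median moved all probes by 0.16 and gave 42 higher and 35 lower (54.5% higher), and scaling to 5 spike-in probes moved all probes by 0.44 and gave 71 higher and 12 lower (85.5%). Quantile normalization gave 45.9% higher, and 43.0% were higher in the authors' deposited value table. Calls over the whole array moved in much the same way. Among all 26152 kept probes, rises made up 36.3% of calls on the scale used here. That share became 55.2% after scaling to the median and 81.5% after scaling to the spike-ins. It was 46.2% after quantile normalization and 44.1% for the authors' values. The change of direction is therefore not particular to noncoding transcripts. Rises and falls below are relative to the 75th percentile, and a named noncoding transcript that lost its call is given with a setting in which it did so or with the number of alternatives it passed. Sense genes, the protein and marker lists and transcripts without a gene name were not followed through the alternatives.

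**Figure D1:**
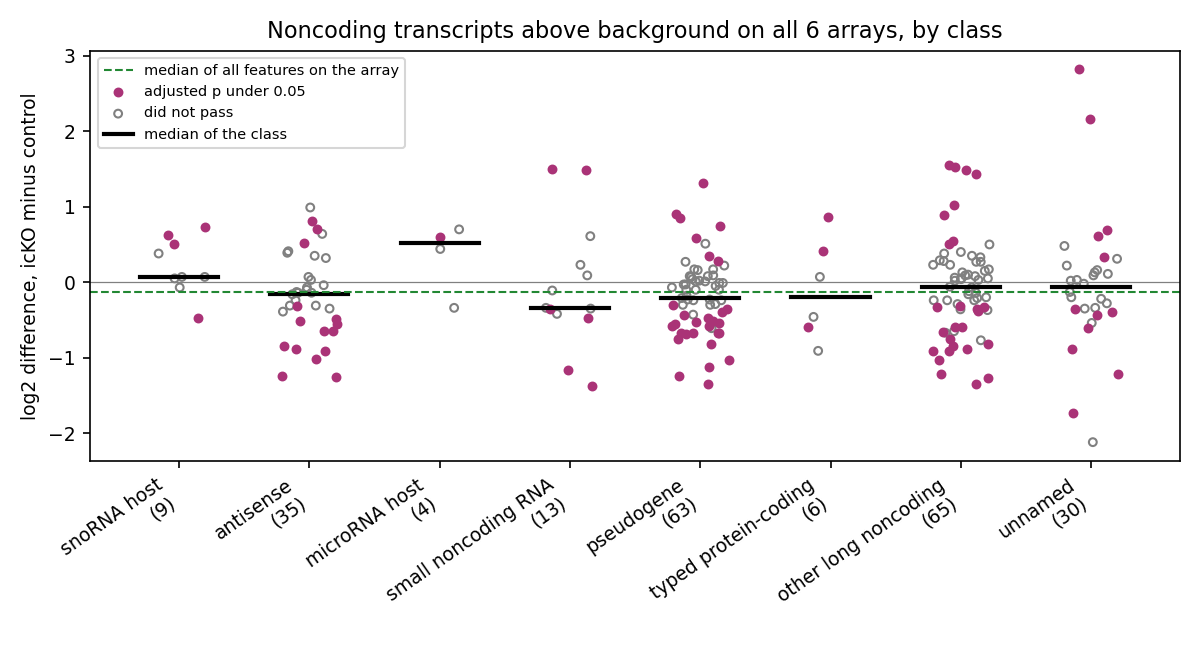
Log2 difference (icKO minus control, 3 arrays each) of the 225 noncoding transcripts above background on all 6 arrays, by class, with the number of transcripts under each class name. Filled points passed the test, black bars are class medians, and the dashed line is the median of all features at -0.13. Both rises and falls occur in each of the larger classes, and the highest value is 2.82 in a transcript without a gene name.

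Marker RNAs of several cell types differed between the groups. All 10 cardiomyocyte markers were above background on all 6 arrays; 7 fell and 0 rose, and their mean level was 8.35 to 8.59 in controls and 7.71 to 7.92 in icKO. Among 10 fibroblast markers 8 rose and 1 fell (mean level 2.49 to 3.31 against 4.07 to 4.42), and of 10 macrophage markers 9 were detected and 8 rose (0.96 to 1.63 against 2.62 to 3.20). Endothelial markers gave 1 rise and 3 falls among 10, and smooth muscle and pericyte markers 2 rises and 3 falls among 8. Of 6 lymphocyte markers 2 were detected on all arrays, with 1 rise and 1 fall, and of 4 erythrocyte markers 2, with 1 rise. Over all features 15.4% rose and 28.3% fell. In whole ventricle, fewer cells of a type and less RNA per cell cannot be told apart, and the part of these shifts in the differences below was not tested. The Tead1 probe differed by -0.40 ± 0.11 (SE; limma adjusted p = 0.0304); its place relative to the floxed part was not checked, so it does not test the labels. All arrays lay on 1 slide, where controls took columns 1, 1 and 2 and icKO samples took 2, 3 and 3, so slide column and group can hardly be told apart.

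Host genes of snoRNAs were compared first. By name, 9 hosts were members and all 9 were above background on every array. Of these 3 rose (33.3%), 1 fell (11.1%) and 5 did not pass, with a median difference of 0.07. The shares of all features were 15.4% and 28.3%. Adding long noncoding members outside the antisense class whose annotated bounds hold a snoRNA gene, whatever its strand, a choice made after the values were seen, gave 11 hosts, of which 5 rose and 1 fell, with a median of 0.38. In the antisense class, 4833422C13Rik also holds a snoRNA gene (Gm22778) and differed by -0.07 ± 0.20, which did not pass. The share higher was 45.5% of these 11, beside 15.4% of all features, and nothing is read from it because the set is small and was chosen late.

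The host 2410006H16Rik, whose bounds hold Snord49a, Snord49b and Snord65, stood at 1.63, 1.26 and 1.31 in the controls and at 3.13, 2.94 and 2.61 in icKO. Every icKO array lay above every control, a difference of 1.49 ± 0.17 or 2.82-fold (SE, n = 3 and 3; limma adjusted p = 0.00126). The host of Snord52, 1110038B12Rik, read 0.13, -0.09 and 0.09 in controls and 1.12, 0.95 and 0.75 in icKO. Its difference of 0.89 ± 0.13 (1.86-fold, limma adjusted p = 0.00289) was again without overlap. Both kept their call under all 19 alternatives.

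Among the Snhg genes the clearest rise was that of Snhg3, host of Snora73a and Snora73b, snoRNAs that act in ribosomal RNA processing. Snhg3 read 2.20, 2.18 and 2.24 in controls and 3.18, 2.79 and 2.85 in icKO, a tight control group below all icKO arrays (0.73 ± 0.13, 1.66-fold, limma adjusted p = 0.00543). Snhg12, whose bounds hold Snora16a, Snora44, Snora61 and Snord99, went from 0.70, 0.52 and 0.37 to 1.20, 1.29 and 0.96 (0.62 ± 0.14, limma adjusted p = 0.0123). Snhg1, a host of several C/D box snoRNAs including Snord22, went from -0.44, -0.57 and -0.69 to -0.01, 0.02 and -0.19 (0.50 ± 0.11, limma adjusted p = 0.0130). Groups did not overlap for any of these 3. Snhg3 kept its call under all alternatives, and Snhg12 and Snhg1 lost theirs only when all 55681 probes were tested with no filter on dim ones (highest limma adjusted p 0.0539 and 0.0617).

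Snhg7, host of Snora17 and Snora43, moved the other way. It read 0.13, 0.02 and 0.22 in controls and -0.21, -0.38 and -0.49 in icKO, a fall by 0.48 ± 0.11 on the log2 scale (limma adjusted p = 0.0163). That call was lost in 5 of 19 alternatives, with adjusted p between 0.00627 and 0.859 over all of them: the difference was -0.32 with median scaling, -0.04 with spike-in scaling, -0.43 without control replicate 3 and -0.41 without icKO replicate 3, and the fifth was the test with no filter. Median and spike-in scaling each gave 4 higher and 0 lower hosts among the 9.

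The other 5 named hosts did not pass. Snhg16, host of Snord1a, Snord1b and Snord1c, was at 1.26, 1.51 and 1.33 in controls and 2.0, 1.68 and 1.56 in icKO (0.38 ± 0.14, limma adjusted p = 0.0710), without overlap, and its other probe differed by -0.20 ± 0.19. Differences were -0.07 ± 0.10 for Snhg6 (host of Snord87), 0.07 ± 0.13 for Dancr (host of Snora26), 0.07 ± 0.12 for Snhg17 and 0.05 ± 0.16 for Snhg10 (host of Scarna13, a guide of small nuclear RNA modification). Their group values overlapped, and the signs of these 4 turned under at least 1 alternative.

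**Figure D2:**
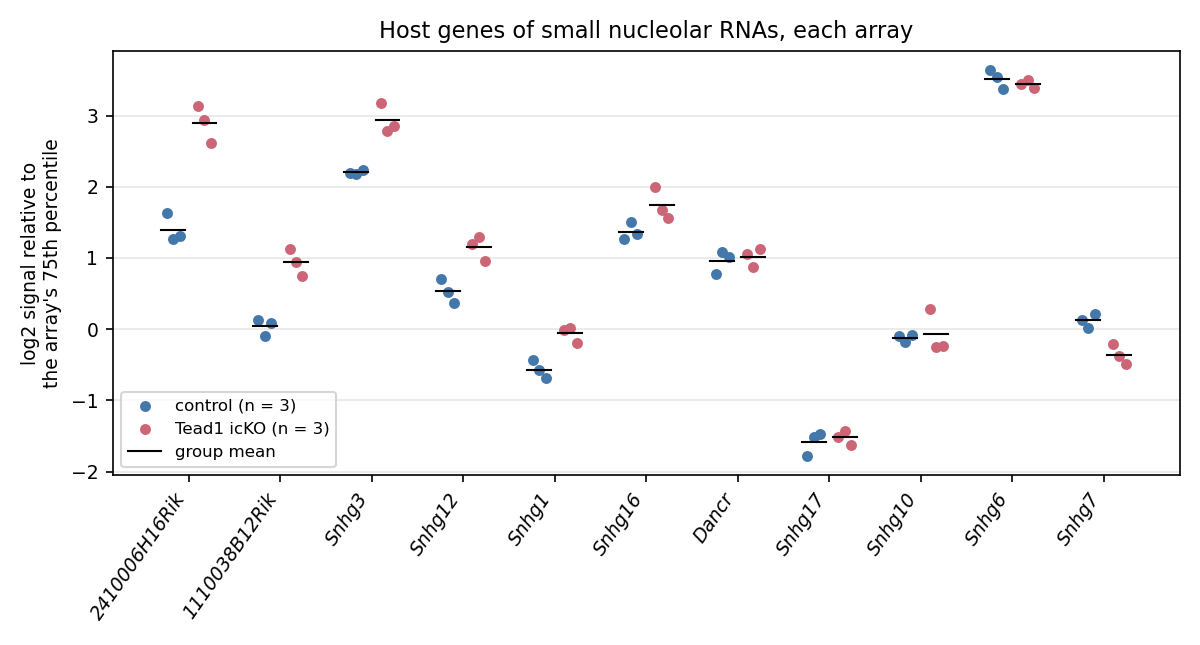
Log2 signal relative to the array's 75th percentile (y axis) of 11 snoRNA host genes (x axis) on each of 3 control and 3 Tead1 icKO arrays; black bars are group means. The 6 hosts at the left, Snhg16 among them, have all icKO arrays above all controls, and Snhg7 at the right has them below.

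Protein lists from the biology of these hosts were read beside them. Of 20 snoRNP proteins and assembly factors, which bind and mature snoRNAs, 18 were above background on all 6 arrays; 0 rose and 5 fell, with a median difference of -0.15. Over all features 15.4% rose and 28.3% fell, with a median of -0.13. Those that fell were Nop56, a core protein of C/D box particles (-0.31 ± 0.10), Snu13, which binds the C/D motif (-0.60 ± 0.10), Nop10, a core protein of H/ACA particles (-0.64 ± 0.10), the assembly ATPase Ruvbl2 (-0.73 ± 0.12) and Rrp9 of the U3 particle (-0.77 ± 0.11). Of 14 nonsense-mediated decay and exon junction factors, 12 were detected throughout; 5 rose and 2 fell, with a median of 0.22, beside the same shares and median over all features. The kinase Smg1 differed by 1.11 ± 0.14 (limma adjusted p = 0.00191), Upf3a by 0.57 ± 0.11, Smg6 by 0.56 ± 0.11, Upf2 by 0.54 ± 0.12 and Smg9 by 0.43 ± 0.12, while the helicase Upf1 fell by 0.44 ± 0.09.

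Small noncoding RNAs made up 13 members, all detected on every array. Of these 2 rose (15.4%), 4 fell (30.8%) and 7 did not pass, with a median of -0.34. These shares lay beside 15.4% and 28.3% of all features, where the median was -0.13. The probe for Snord123, a C/D box snoRNA, read 1.72, 1.30 and 1.58 in controls and 3.06, 2.97 and 3.04 in icKO, a gap wider than either group's spread (1.49 ± 0.13, 2.80-fold, limma adjusted p = 0.000539). The probe for Rnu3b1, a gene of the U3 snoRNA that acts in the first cleavages of ribosomal RNA, read 0.10, -0.64 and -0.48 in controls and 0.60, 1.39 and 1.49 in icKO (1.50 ± 0.30, limma adjusted p = 0.00841). Rnu7, the U7 small nuclear RNA that guides 3′ end processing of histone transcripts, read -1.01, -0.76 and -0.83 in controls and -1.95, -2.12 and -2.68 in icKO. It fell by 1.38 ± 0.20 (limma adjusted p = 0.00284). These 3 kept their calls under all 19 alternatives. How RNAs without a poly(A) tail enter cRNA amplification was not tested, and near-identical copies of such genes cannot be told apart by these probes.

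The other small RNAs gave weaker or unstable differences. The 28S ribosomal RNA probe Rn28s1 fell by 0.48 ± 0.10 (limma adjusted p = 0.00885), from 8.67, 8.49 and 8.66 to 8.09, 8.11 and 8.17, but its difference was -0.33 with median scaling, -0.08 with quantile normalization and -0.04 with spike-in scaling and in the authors' deposited table, none of them past the threshold. Rn4.5s, a repeat-derived small RNA, differed by -0.36 ± 0.10 (limma adjusted p = 0.0267) and by 0.23 after quantile normalization and in the authors' deposited table and 0.08 with spike-in scaling, so its direction depends on the scaling. Its call was also lost without each of the 3 controls and without icKO replicates 2 and 3 (-0.37 to -0.31). Terc, the telomerase RNA, differed by -1.17 ± 0.36 (limma adjusted p = 0.0398) and passed in only 8 of 19 alternatives, where the adjusted p ran from 0.00899 to 0.114. It lost its call without control replicates 1 (-1.26) or 3 (-0.78) and without icKO replicates 2 (-1.06) or 3 (-1.09). Rmrp (0.09 ± 0.20), the RNA of RNase MRP, and Rpph1 (-0.35 ± 0.23), the RNA of RNase P, had overlapping groups, as did the spliceosomal RNA probes Rnu12 (-0.11 ± 0.12), Rnu1b6 (0.23 ± 0.18) and Rnu2-10 (0.61 ± 0.23, limma adjusted p = 0.0698). Snora74a differed by -0.34 ± 0.15 and Rprl2 by -0.42 ± 0.31, and neither passed.

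Antisense transcripts were the second class. Their probes were assigned to a strand by annotation alone. Probe positions and the strand that each probe reads were not checked, so a probe may also read the other gene of its pair. Of 46 members 35 were above background on all 6 arrays; 3 rose, 12 fell and 20 did not pass, with a median difference of -0.16. The shares were 8.57% higher and 34.3% lower, beside 15.4% and 28.3% of all features. Median scaling gave 7 higher and 8 lower, and spike-in scaling 8 higher and 3 lower. Of all kept probes called under these scalings, 55.2% and 81.5% were higher. Leaving out icKO replicate 2 gave 6 higher and 8 lower.

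Mhrt, which runs antisense to Myh7 in the cardiac myosin heavy chain locus and is known as a cardiomyocyte chromatin regulator, read 5.91, 6.28 and 6.69 in controls and 4.70, 5.18 and 5.27 in icKO. It fell by 1.24 ± 0.24 on the log2 scale, 2.37-fold (limma adjusted p = 0.00789), with every icKO array below every control and the call kept under all 19 alternatives. Myh7, the slow myosin heavy chain on the other strand, read 6.09, 6.87 and 6.08 in controls and 7.06, 6.51 and 7.38 in icKO. These values overlap, and the difference of 0.64 ± 0.30 did not pass (limma adjusted p = 0.126). Myh6, the adult fast myosin heavy chain of the same locus, differed by -0.69 ± 0.14 (limma adjusted p = 0.00852).

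BC037032 lies antisense to Oxct1, the mitochondrial enzyme that starts ketone body use, and both fell. BC037032 read 1.01, 0.90 and 0.95 in controls and 0.14, 0.05 and 0.00 in icKO (-0.89 ± 0.09, limma adjusted p = 0.000909), and Oxct1 differed by -0.95 ± 0.12 (limma adjusted p = 0.00182). Gm14207 and its partner Dll4, the Notch ligand of endothelial cells, also fell together, by 1.26 ± 0.37 and 0.55 ± 0.14 (limma adjusted p = 0.0341 and 0.0206). Gm14207 passed in only 10 of 19 alternatives, losing its call when control replicate 1 (-1.32), 2 (-1.37) or 3 (-1.08) or icKO replicate 2 (-1.41) was left out (adjusted p over all alternatives 0.00903 to 0.101).

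In 3 of the pairs in which both strands passed the test, the antisense and sense probes moved in opposite directions. BC065397 read -1.12, -1.04 and -0.92 in controls and -2.17, -2.01 and -1.95 in icKO, a fall by 1.02 ± 0.11 (limma adjusted p = 0.000979), while Morf4l2, a chromatin acetylation complex relative, rose by 0.32 ± 0.10 (limma adjusted p = 0.0451). Zbtb11os1 went from 0.56, 0.70 and 0.48 to 1.22, 1.07 and 1.01 (0.52 ± 0.11, limma adjusted p = 0.00996), while the zinc finger gene Zbtb11 fell by 0.44 ± 0.09 (limma adjusted p = 0.0107). Zbtb11os1 lost its call with no filter on dim probes, the only loss among 19 alternatives (adjusted p 0.00493 to 0.0509). Rab10os differed by 0.71 ± 0.17 (limma adjusted p = 0.0160) and Rab10, a small GTPase of membrane traffic, by -0.35 ± 0.11 (limma adjusted p = 0.0410). Rab10os is dim, and with normexp background correction its difference was 0.08 and did not pass; the call was also lost without control replicate 3 (0.69) and without icKO replicate 3 (0.62).

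Over all 29 pairs with both strands above background on 6 arrays, 2 had the antisense strand higher and the sense strand lower, 1 the reverse, 2 had both lower and 0 both higher, and 11 had neither strand past the threshold. Of single features over the array, 43.6% were called, 15.4% higher and 28.3% lower. How often unrelated pairs would give such counts was not tested, so nothing is read from them. The sign agreed in 13 of 29, and Pearson's r across the pairs was -0.09, as a description only, since both strands come from the same arrays. Airn, the imprinted antisense transcript at Igf2r, had overlapping groups on its brightest probe (2.56, 2.88 and 2.96 against 2.41, 2.81 and 2.74, a difference of -0.14 ± 0.16), while Igf2r rose by 0.83 ± 0.10 (limma adjusted p = 0.00144). The sign of Airn turned under median scaling (0.01) and spike-in scaling (0.30). Its other probe read -1.89, 1.45 and -1.59 in controls and -2.67, -2.11 and -2.27 in icKO, so control replicate 2 stood apart there.

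Among the other named antisense members detected on all 6 arrays, 4933439C10Rik, antisense to Zkscan17, rose. It went from -0.92, -0.68 and -0.78 to 0.03, 0.05 and -0.03 (0.81 ± 0.10, limma adjusted p = 0.00171). Gm6994 fell by 0.65 ± 0.09 (limma adjusted p = 0.00282), Trmt61b by 0.91 ± 0.12 (limma adjusted p = 0.00187) and Ube2d-ps by 0.65 ± 0.13 (limma adjusted p = 0.00915). These 3 lost their call under spike-in scaling alone, with differences of -0.20, -0.47 and -0.21. G6bos differed by -0.84 ± 0.25 (limma adjusted p = 0.0365) and passed in 12 of 19 alternatives, with adjusted p from 0.00613 to 0.275; it lost its call when control replicate 1 (-0.79), 2 (-0.83) or 3 (-0.91) or icKO replicate 2 (-0.60) or 3 (-0.81) was left out.

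**Figure D3:**
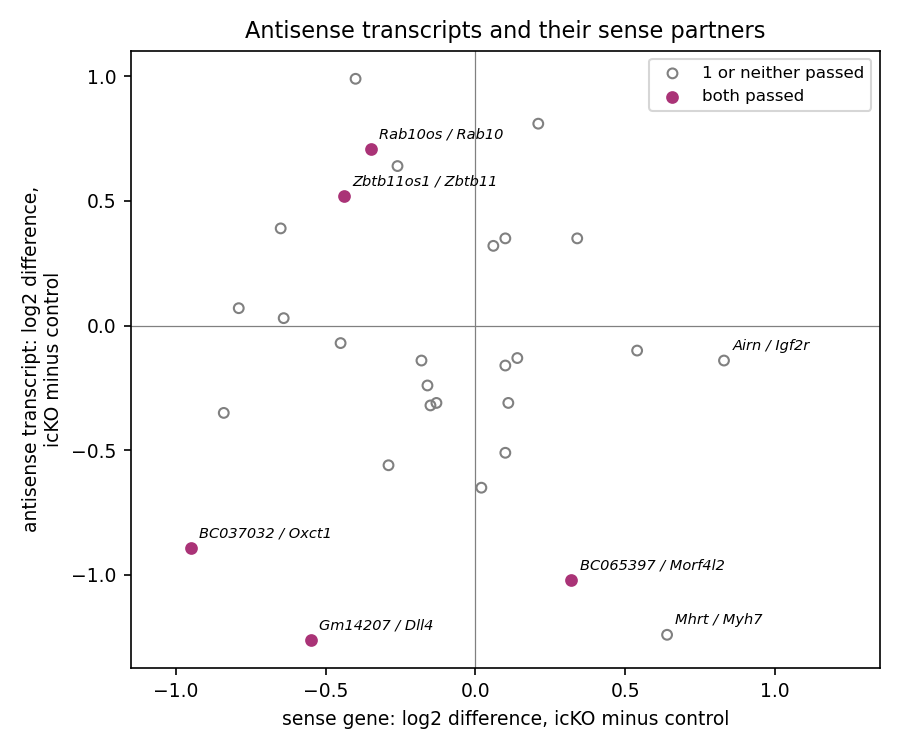
Log2 difference (icKO minus control, 3 arrays each) of an antisense transcript (y axis) against its sense gene (x axis), for the 29 pairs with both above background on all 6 arrays. Filled points are the 5 pairs in which both passed the test, and they fall in 3 quadrants; Mhrt with Myh7 and Airn with Igf2r are labelled as well.

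The microRNA host class took long noncoding members outside the snoRNA host and antisense classes whose bounds hold a microRNA gene. All 4 were detected throughout, and 1 rose and 0 fell, with a median of 0.52. Beside them, 15.4% of all features rose and 28.3% fell. Dnm3os, Dleu2 and D7Ertd143e also hold microRNA genes but are counted as antisense, and Snhg10 is counted as a snoRNA host. Mir99ahg is counted with the remaining long noncoding RNAs. Of 8 mature microRNAs that RefSeq on GRCm38.p6 places within the bounds of 3 host transcripts, the 4 from the 3′ arm are shown with the seed, bases 2 to 8, in capitals, since no 2 of these share a seed; the arrays measured the hosts and not the mature forms.
miR-92a-3p of Mir17hg: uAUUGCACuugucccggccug
miR-22-3p of Mir22hg: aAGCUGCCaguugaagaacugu
miR-199a-3p of Dnm3os: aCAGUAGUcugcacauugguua
miR-214-3p of Dnm3os: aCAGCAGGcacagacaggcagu
Mir17hg, the host of the oncogenic miR-17 to miR-92a cluster, read -1.65, -1.37 and -1.39 in controls and -0.62, -1.06 and -0.93 in icKO (0.60 ± 0.15, limma adjusted p = 0.0197). The icKO arrays were all above the controls, but the call was lost without control replicate 1 (0.51), with no filter on dim probes and with the replicate number as a block (adjusted p over all alternatives 0.00571 to 0.0754).

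Mir22hg, host of the muscle-rich miR-22, read 0.62, 0.56 and 0.44 in controls and 2.08, 0.92 and 0.71 in icKO. All icKO arrays were above all controls, with icKO replicate 1 far above the others, and the difference of 0.70 ± 0.35 did not pass (limma adjusted p = 0.147). Mirg (0.44 ± 0.27), from the imprinted Dlk1 and Dio3 region, and Ftx (-0.34 ± 0.19), a neighbour of Xist, had overlapping groups. Dnm3os, the antisense precursor of miR-199a and miR-214 within Dnm3, was above background on all icKO arrays and on 1 control. It read -4.10, -5.24 and -3.22 in controls and -2.27, -1.87 and -1.67 in icKO.

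The remaining long noncoding RNAs numbered 76, with 65 above background on all arrays. Of these 8 rose (12.3%), 18 fell (27.7%) and 39 did not pass, with a median of -0.07. These shares lay beside 15.4% and 28.3% of all features. Malat1, an abundant RNA of nuclear speckles, read 1.45, 2.06 and 1.58 in controls and 3.86, 2.53 and 2.99 in icKO, the highest value being icKO replicate 1. The difference was 1.43 ± 0.35 or 2.70-fold (limma adjusted p = 0.0177). It passed in 15 of 19 alternatives, with adjusted p from 0.00316 to 0.0607, and did not without control replicate 1 (1.31) or control replicate 3 (1.38), with the replicate number as a block, or with no filter on dim probes.

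Neat1, the scaffold of paraspeckles, lies beside Malat1 and read 6.72, 6.81 and 6.78 in controls and 6.94, 6.84 and 7.23 in icKO. The groups did not overlap, but the difference of 0.23 ± 0.12 did not pass (limma adjusted p = 0.171). It did pass in 4 alternatives: normexp (0.40), quantile (0.45), spike-in (0.68) and the authors' deposited table (0.43). Of 9 paraspeckle proteins, among them Nono, Sfpq and Pspc1, all were detected, 0 rose, 0 fell by limma and the median difference was 0.01. Among all features 15.4% rose and 28.3% fell, with a median of -0.13.

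Several broadly expressed or imprinted long noncoding RNAs did not pass, or, as Peg13, passed narrowly. Norad, which binds PUMILIO proteins, read 4.20, 4.25 and 4.20 in controls and 4.33, 4.34 and 4.25 in icKO (0.09 ± 0.09), and its 4 probes ran from -0.07 to 0.09. Tug1 differed by -0.21 ± 0.18 on its brightest probe, with control replicate 2 below the other controls. Without that array the difference was -0.41 and passed, and with spike-in scaling it was 0.23. Its dimmer probes gave 0.26 ± 0.14 and -0.03 ± 0.11, and neither passed. Kcnq1ot1, the imprinted antisense transcript of the Kcnq1 domain, was not placed in the antisense class by the annotation used here. It read 0.03, 0.20 and 0.23 in controls and 0.47, 0.51 and 0.35 in icKO. Its difference of 0.29 ± 0.10 (limma adjusted p = 0.0598) passed in 4 of 19 alternatives, while Kcnq1, a cardiac potassium channel, fell by 0.95 ± 0.12 (limma adjusted p = 0.00200). Peg13, an imprinted transcript, differed by -0.35 ± 0.12 (limma adjusted p = 0.0499) and passed in 6 of 19 alternatives. It lost its call without each of the 3 controls and without icKO replicates 2 or 3 (-0.40 to -0.29), and its sign turned with spike-in scaling (0.09). Pvt1, a neighbour of Myc, gave 0.10 ± 0.10 on its brightest probe, which was above background on all 6 arrays. A dimmer Pvt1 probe, above background on all icKO arrays but only 1 control, read -3.98, -4.17 and -3.53 in controls and -2.52, -1.70 and -2.17 in icKO.

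Several less familiar transcripts also fell. Mir99ahg, whose locus holds the miR-99a and let-7c cluster, read 0.60, 0.25 and 0.42 in controls and -0.79, -0.71 and -0.88 in icKO, a fall by 1.22 ± 0.12 (2.33-fold, limma adjusted p = 0.000805). Gm2694 read -1.01, -1.06 and -0.92 in controls and -2.12, -2.60 and -2.30 in icKO (-1.35 ± 0.14, limma adjusted p = 0.000979). Falls of 3930402G23Rik (-1.27 ± 0.25) and 2810001G20Rik (-0.91 ± 0.10) also kept their calls under all 19 alternatives. Those of 9430060I03Rik (-0.85 ± 0.10) and 3110021A11Rik (-0.88 ± 0.17) were lost under spike-in scaling alone (-0.41 and -0.43).

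On the rising side, AW011738 read -1.14, -1.38 and -1.17 in controls and 0.22, 0.18 and 0.51 in icKO, with a difference of 1.53 ± 0.13 (limma adjusted p = 0.000514) and 1.83 ± 0.20 on its other probe. 8430431K14Rik read -1.11, -1.65 and -1.03 in controls and -0.20, 0.54 and 0.51 in icKO (1.55 ± 0.26, limma adjusted p = 0.00475). 5530601H04Rik differed by 1.02 ± 0.16 (limma adjusted p = 0.00368). All 3 kept their calls under all 19 alternatives. In contrast, 1500009C09Rik, a dim probe at 0.55 ± 0.13 (limma adjusted p = 0.0157), gave -0.04 with normexp background correction and lost its call without control replicate 3 (0.48).

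**Figure D4:**
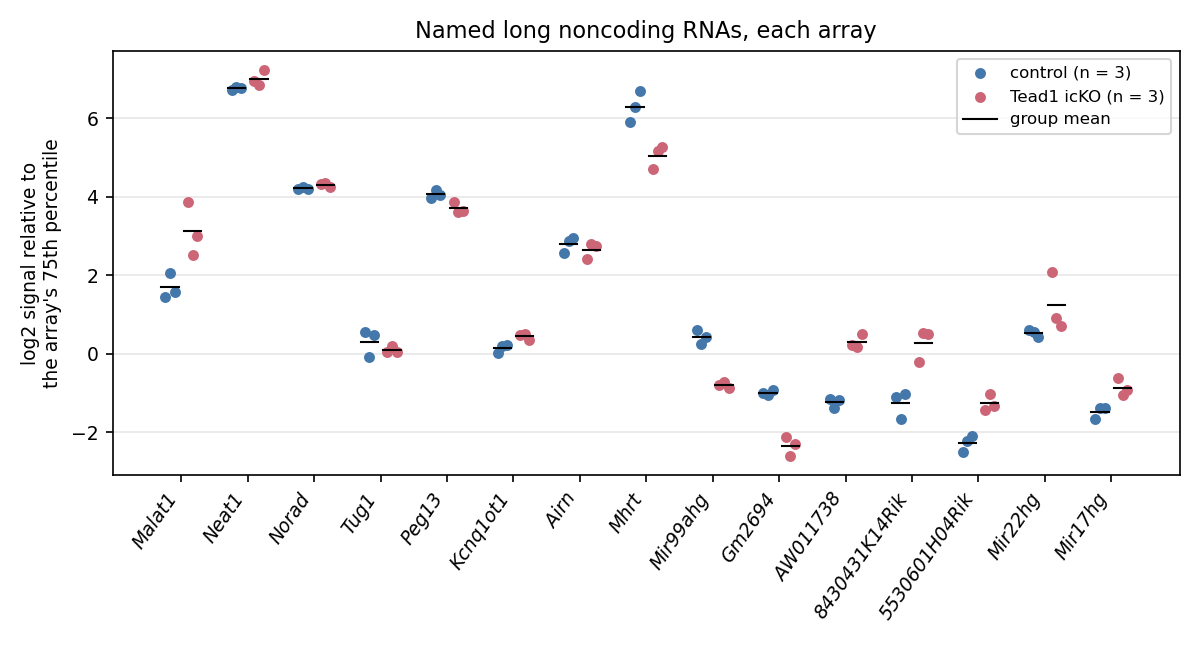
Log2 signal relative to the array's 75th percentile (y axis) of 15 long noncoding RNAs (x axis) on 3 control and 3 Tead1 icKO arrays; black bars are group means. Mhrt, Mir99ahg and Gm2694 have all icKO arrays below the controls, and Malat1, AW011738 and 8430431K14Rik have them above.

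TEAD factors bind the letters CATTCC, or GGAATG on the other strand, and the promoters of the named members were searched for them. Of 52 named members with a promoter entry of 300 bases (250 before and 50 from the start), 8 held the motif (15.4%), against 14.7% of all 32851 entries. It was found 220 bases before the start of Mhrt, 122 before that of Mir99ahg, 232 before that of Mir22hg and 48 before that of 8430431K14Rik. A match is a description of the letters, and rising and falling members both held it. The stretches around 3 of these matches are shown with the motif in capitals, on GRCm38.p6.
Mhrt, chr14:54968547-54968592, plus strand: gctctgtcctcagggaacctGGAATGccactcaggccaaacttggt
Mir99ahg, chr16:77329186-77329231, plus strand: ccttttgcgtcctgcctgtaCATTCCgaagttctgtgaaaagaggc
8430431K14Rik, chr19:31216419-31216464, minus strand: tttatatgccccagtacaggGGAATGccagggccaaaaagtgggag

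Pseudogenes were the largest class after the long noncoding RNAs, with 70 members and 63 above background on all arrays. Of these 7 rose (11.1%), 22 fell (34.9%) and 34 did not pass, with a median of -0.21. The shares of all features were 15.4% and 28.3%, with a median of -0.13. 1700022A21Rik went from 1.71, 1.34 and 1.34 to 0.45, -0.03 and -0.08 (-1.35 ± 0.18, limma adjusted p = 0.00227), and BC025920 differed by -1.24 ± 0.23 and -1.55 ± 0.11 on its probes. 5730416F02Rik differed by 1.31 ± 0.22 (limma adjusted p = 0.00478). Gm6548, with probes at 0.85 ± 0.14 and 0.74 ± 0.12, went from 6.22, 5.74 and 5.97 to 6.88, 6.88 and 6.74 on the brighter one. These 4 kept their calls under all 19 alternatives. Rps4l, a ribosomal protein S4 copy, fell by 0.68 ± 0.11 (limma adjusted p = 0.00380) but gave -0.24 with spike-in scaling and did not pass there. Where a pseudogene is nearly identical to its parent gene, a probe may read both, so these values are uncertain as to source.

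Noncoding transcripts of genes typed protein-coding numbered 7, of which 6 were detected throughout. Of these 2 rose (33.3%) and 1 fell (16.7%), beside 15.4% and 28.3% of all features, too few to compare. Whether the probes of this class also read coding transcripts of the same genes was not tested. Zfp672 went from 1.96, 1.79 and 1.70 to 2.75, 2.54 and 2.74 (0.86 ± 0.12, limma adjusted p = 0.00222). Bmp1, the procollagen C-proteinase, differed by 0.41 ± 0.10 (limma adjusted p = 0.0170) and passed in 13 of 18 alternatives, losing its call without control replicates 2 (0.36) or 3 (0.43) and without icKO replicate 2 (0.39). Tmem80 differed by -0.60 ± 0.18 (limma adjusted p = 0.0343) and passed in 10 of 18, losing its call without control replicates 2 (-0.41) or 3 (-0.67) and without each icKO array (-0.67 to -0.54).

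A further 32 transcripts matched no gene symbol, and 30 of them were above background on all arrays. Of these 5 rose (16.7%) and 7 fell (23.3%), with a median of -0.07, beside 15.4% and 28.3% of all features. NR_033803 read 1.13, 0.65 and 0.50 in controls and 3.88, 3.05 and 3.82 in icKO, a difference of 2.82 ± 0.27 or 7.08-fold (limma adjusted p = 0.000741). NR_002860 read 4.91, 5.32 and 5.10 in controls and 7.44, 7.28 and 7.10 in icKO, and its 3 probes differed by 2.16 ± 0.15, 1.97 ± 0.15 and 1.40 ± 0.17. The 2 with the deepest falls that passed were NR_027897 (-1.74 ± 0.20) and NR_028584 (-1.22 ± 0.20). Of 41 transcripts with several probes, 13 were called by some probes and not by others, 10 had probes of differing sign, and 0 were called in opposite directions. These counts include probes that passed detection through icKO alone, whose calls are not read here. Pvt1 is among the 13 only through such a probe.

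The 32 transcripts that passed detection through 1 group alone are described by their values, because the choice itself makes the groups differ. Of the 257 transcripts, 21 passed through icKO alone and 11 through the controls alone. For comparison, 5.05% and 6.05% of all 22278 features passed in those ways. Nothing is read from these counts, since they rest on detection itself. In 5 of the 21 no control array was above background, so the control side is only a bound: the lowest signal well above background on each array, or the probe's own signal where higher.

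Speer6-ps1 read -5.47, -5.44 and -5.80 in controls and -1.54, -1.54 and -0.73 in icKO, at least 6.04-fold higher (4.68 without control replicate 3, the lowest over leaving out each array). Speer1, a member of the same spermatogenesis-associated glutamate-rich family, read -4.70, -5.31 and -4.96 in controls and -1.29, -1.53 and -1.0 in icKO, at least 6.01-fold higher. Speer5-ps1, above background on 1 control, read -3.63, -4.41 and -3.78 in controls and -1.21, -1.84 and -1.11 in icKO. Copies of this family are similar, so these probes may read the same transcript.

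Serpina3h, a pseudogene in the antichymotrypsin cluster, was at least 3.19-fold higher in icKO, and 2.43-fold without icKO replicate 3, which stood above the others (-2.54, -2.57 and -1.37). E030003E18Rik was at least 2.06-fold higher. 2900005J15Rik, antisense to Prkag2, the regulatory subunit of AMP-activated kinase, was at least 1.79-fold higher, and Prkag2 itself rose by 1.31 ± 0.12 (limma adjusted p = 0.000621).

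On the other side, Prr33 read 1.38, 1.49 and 1.83 in controls and -4.11, -2.79 and -3.35 in icKO, with 2 icKO arrays still above background. 1810014B01Rik read -0.57, -0.93 and -0.87 in controls and -4.21, -2.36 and -3.13 in icKO. Hoxa11os, antisense to Hoxa11, read -2.65, -3.06 and -2.59 in controls and -3.91, -3.66 and -3.96 in icKO, with 1 icKO array above background. Wbscr25 and Zim3 had overlapping groups, so passing through 1 group did not always go with a difference. At the edge of the rule, the dimmest member, by the brighter of its groups that passed, was NR_033219, with an icKO mean of -3.38, and the brightest transcript just outside was Snora47, with a mean of -2.36, above background on 2 controls and 1 icKO array.

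**Figure D5:**
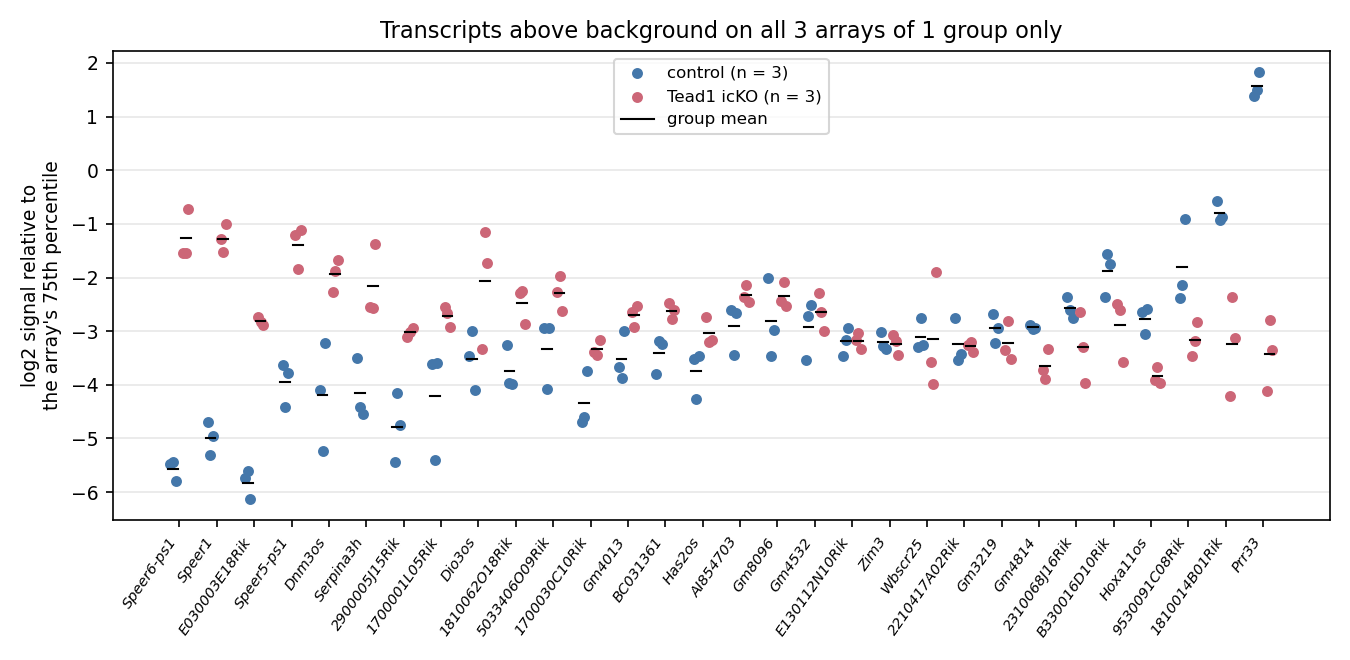
Log2 signal relative to the array's 75th percentile (y axis) of the 30 named transcripts (x axis) that were above background on all 3 arrays of 1 group only, ordered by their difference; black bars are group means. The Speer transcripts at the left are high in icKO, Prr33 at the right is high in controls, and groups in the middle overlap.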

How the data were processed

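Total RNA of 3 control and 3 Tead1 icKO ventricles was measured on one-colour arrays. The deposited scanner files hold linear spot intensity from Agilent Feature Extraction 11.0.1.1, background-subtracted within each array and unscaled between arrays, per the file headers, for a design on mouse build mm9; the submitters' processing notes name version 9.1. The authors' deposited value table holds linear intensity too, of unstated normalization, and served as an alternative.

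Each array's log2 signals were set against their own 75th percentile (control probes left out), and spots without outlier flags were averaged per probe. Detection on an array required that no more of a probe's spots failed the well-above-background flag than passed it. Kept probes were compared with limma 3.58.1 in R 4.3.3, tested on simulated data first. Since the files used here carry median and not mean foreground signals, normexp used the medians, with offset 50. Replicates are separate mice per the labels, and their number limits the precision.

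Accessions were named through a RefSeq table of GRCm38.p6, which matched 270 of 311 probes. That table gives no strand, so snoRNA hosts were taken by name and antisense strands from the promoter table. Members, classes and gene lists were chosen with earlier results of these data known. Named were, in each class, up to 8 members with the largest rise and fall among those that passed without overlap, up to 6 of the largest bounds each way (5 existed, all higher in icKO), and a fixed list of known noncoding RNAs; other names were chosen after their values were seen. Not every gene on these lists is reported here.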

Additional observations from a re-analysis of the deposited data

How the results depend on the processing

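Counts of called noncoding transcripts (96), snoRNA hosts (4), antisense (15) and remaining transcripts (77) stayed within 1.5 times of these values in every alternative except the test of all 55681 probes with no filter, which gave 49, 1, 8 and 40; adjustment over more probes is part of that setting. Leaving out 1 array at a time gave 67 to 87, 3 to 4, 10 to 15 and 54 to 68. Pairing of mice by replicate number was not seen, though 3 mice a group cannot exclude it. Same-numbered deviations from the group means correlated at -0.056, -0.131 and -0.002, and differently numbered ones at -0.036 to 0.098. The replicate block gave 77, 4, 13 and 60. Of 71 named members fitted, 57 were called, and 22 of these kept their call throughout; 4 lost it only with no filter and 9 only under spike-in scaling. Signs turned for 3 called members: 1500009C09Rik (normexp, -0.04), Peg13 (spike-in, 0.09) and Rn4.5s (quantile and the authors' table, 0.23; spike-in, 0.08). They also turned for 9 that were not called: with normexp Pvt1 (-0.00), Snhg17 (-0.12) and Snhg6 (0.01); with median scaling Airn (0.01) and Snhg6 (0.08); with spike-ins Airn (0.30), Rpph1 (0.09), Snhg6 (0.37) and Tug1 (0.23); with array weights Snhg10 (-0.05); with slide row as a block Dancr (-0.00); and on leaving out 1 array at a time Dancr (-0.03 to 0.14), Rmrp (-0.04 to 0.28), Snhg10 (-0.12 to 0.14) and Snhg17 (-0.03 to 0.12). The cause was not tested. Probes close to background limit what can be read: Rab10os and 1500009C09Rik lost their calls with normexp.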
